A study of Rattus norvegicus with 18 samples.

Results

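Bone morphogenetic protein (BMP) and ciliary neurotrophic factor (CNTF), 2 factors known to turn neural precursor cells into astrocytes, were compared directly in rat spinal cord material. The comparison used 12 of the 18 expression arrays of the series: the 6 labelled as given 10 ng/mL of BMP for 4 days and the 6 labelled as given 10 ng/mL of CNTF for 4 days. Array titles are numbered 1 to 6 within each group, and the BMP and CNTF arrays of the same number were treated as a pair. The other 6 arrays are labelled controls with no treatment and no time; they entered no test, and their levels are given only for reference. All 18 labels read spinal cord, total RNA and "14 NT", an entry that was not interpreted here, and which BMP was used, and on which cells, strain or culture, they do not say. Nothing in the labels says that arrays came from separate animals or cultures. The p-values of the paired model reflect only the spread of differences between same-numbered arrays, part of which may be technical. Those quoted without the pairing reflect the spread of arrays within a group.

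BMPs bind serine/threonine kinase receptors that phosphorylate SMAD proteins, which enter the nucleus and switch on genes such as the Id inhibitors of basic helix-loop-helix factors and the feedback inhibitors of the pathway. CNTF binds a receptor complex that holds the gp130 chain and activates JAK kinases and the transcription factor STAT3, which in turn induces the feedback inhibitor Socs3 and acute phase genes. In the spinal cord both pathways are known to induce the astrocyte filament gene Gfap, and BMP is also known to hold back oligodendrocyte formation.

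Of 31042 probe sets, 4099 (13.2%) were called different between BMP and CNTF, at an adjusted p below 0.05 in limma with Benjamini-Hochberg adjustment. BMP was the higher group in 2273 (7.32%) and CNTF in 1826 (5.88%). A difference of at least 2-fold was found in 543 probe sets higher with BMP (1.75%) and 398 higher with CNTF (1.28%), 3.03% together. Levels are log2 of the deposited intensity plus a constant of 116.655, the 20th percentile of the table, and differences are BMP minus CNTF on that scale, so a negative value means higher with CNTF. The constant makes the differences of dim genes smaller than they would be on the plain intensity scale. At the level of named genes, each taken as its brightest probe set, 2278 of 14217 (16%) were called, 1217 higher with BMP (8.56%) and 1061 higher with CNTF (7.46%), while 528 (3.71%) were called at 2-fold or more, and 1998 of all those called had the same sign in all 6 pairs. The median difference over all named genes was 0.006. The counts from gene lists below stand beside these shares of named genes. Calls were more common among brighter probe sets, with 4361 of the 19311 left by a filter on dim signals. Some lists lay near that level. The called share was 25% for small leucine-rich proteoglycans and lysyl oxidases and for cell cycle inhibitors. It was 23.1% for potassium channel and gap junction genes and 22.2% for Schwann cell and neural crest markers. Little above it were BMP-SMAD targets and feedback genes (27.3%) and glutamate, glycine and GABA genes (27.8%). So were FGF feedback, brain chondroitin sulphate proteoglycan, and fibroblast and mural genes, each at 28.6%. Without the pairing the same model called 824 probe sets higher with BMP and 755 higher with CNTF. In bulk RNA a gene can be lower because fewer cells express it or because each cell holds less of its RNA, and these cannot be told apart here.

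The arrays divided by factor along the first principal component, which held 26.3% of the variance. BMP arrays lay between 13.3 and 54.4 on it and CNTF arrays between -47.3 and -21.8. BMP arrays 1, 2 and 3 lay at 49.4, 47.8 and 54.4, and BMP arrays 4, 5 and 6 at 14.7, 22.9 and 13.3. The second component held 17%, and on it BMP lay above CNTF in all 6 pairs.

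**Figure D1:**
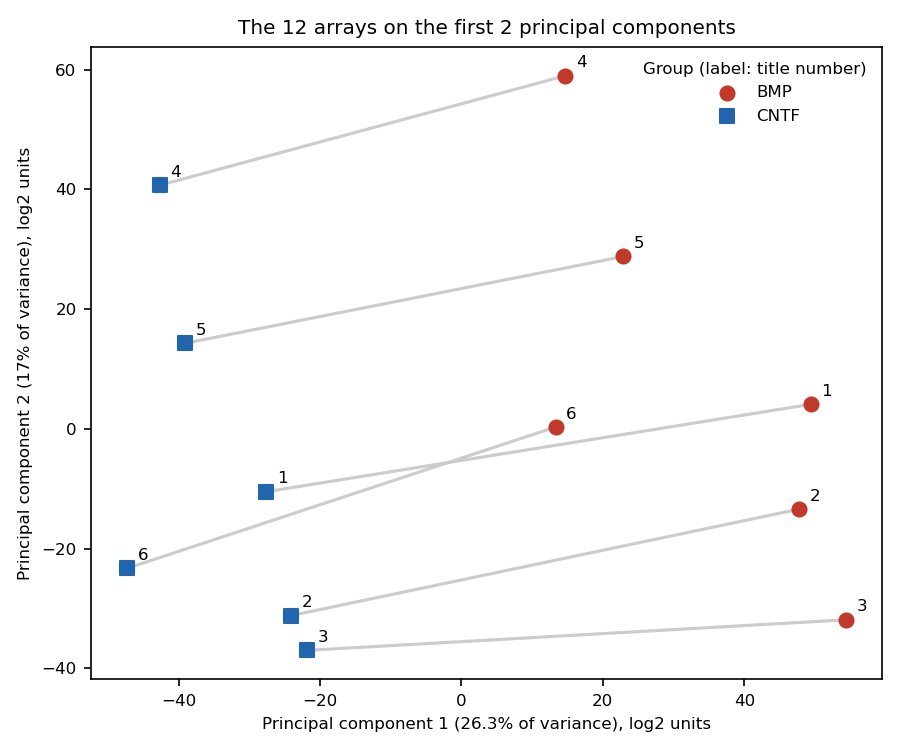
Position of the 12 arrays on the first principal component (x axis, 26.3% of variance) and the second (y axis, 17%), computed over all tested probe sets in log2 units. Circles are BMP arrays, squares CNTF arrays, labels are title numbers and grey lines join the same number; the factors separate along x, with BMP at 13.3 to 54.4 and CNTF at -47.3 to -21.8.

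**Figure D2:**
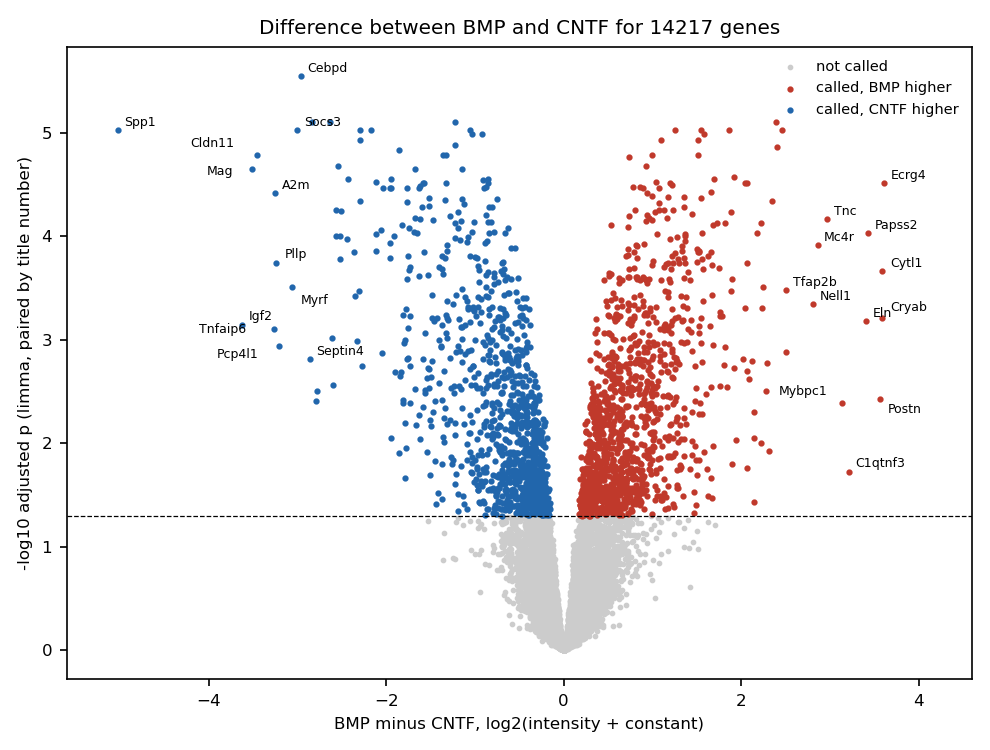
BMP minus CNTF difference (x axis, log2 of intensity plus constant) against -log10 of the limma adjusted p (y axis) for 14217 named genes. Red points are the 1217 genes higher with BMP, blue points the 1061 higher with CNTF, grey points were not called, the dashed line marks an adjusted p of 0.05, and the 12 genes with the largest differences in each direction are named; Spp1 at -5.02 lies farthest from 0.

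Targets and feedback genes of the CNTF pathway separated the factors. Of 23 measured genes of a gp130-STAT3 list, 13 were higher with CNTF and none with BMP, with a median difference of -0.51 over the 23 genes. Socs3, which encodes the feedback inhibitor of gp130 signalling, stood at 8.87, 9.07 and 9.14 with BMP (the lowest, median and highest of the 6 arrays, as in all such triplets below) and at 11.66, 11.93 and 12.53 with CNTF. Every CNTF array lay above every BMP array, and the BMP arrays lay within the control range of 8.19 to 9.21. The difference was -3.0 (SE 0.15, adjusted p = 9.4e-06). Cebpd, which encodes C/EBP-delta and is induced in acute phase reactions, stood at 8.58, 9.27 and 9.59 with BMP and at 11.76, 12.25 and 12.47 with CNTF. Its groups did not overlap either, and its difference of -2.96 (SE 0.11) had the smallest adjusted p of the genes described here, 2.8e-06; another, dim probe set of Cebpd differed by -0.14 (adjusted p = 0.799). A2m, the protease inhibitor alpha-2-macroglobulin that marks the rat acute phase response, stood at 8.64, 10.12 and 10.62 with BMP and at 12.11, 13.29 and 13.99 with CNTF. All A2m values with CNTF were above those with BMP, by -3.25 (SE 0.24, adjusted p = 3.82e-05).

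The same list also holds the pathway's own signalling chain. Stat3 itself stood at 13.16, 13.58 and 13.85 with BMP and at 14.10, 14.37 and 14.70 with CNTF, without overlap, a difference of -0.85 (SE 0.071, adjusted p = 7.2e-05). Il6st, which encodes gp130, differed by -0.40 and was called, whereas Lifr, the other signalling chain of the CNTF receptor, differed by 0.44 and was not called. Further members higher with CNTF were the immediate early genes Fos (-2.11) and Junb (-1.78), the NF-kappa-B regulator Bcl3 (-1.73), the metalloproteinase inhibitor Timp1 (-1.18), the TNF receptor Tnfrsf1a (-0.89), Socs2 (-0.81), Myc (-0.51) and Mcl1 (-0.29). Not every gene with this reputation differed: Socs1 (0.16), Cish (-0.11), Lcn2 (-0.15) and Pim1 (-0.25) were not called. Without the pairing 11 of the 23 genes were higher with CNTF.

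On the BMP side the canonical early targets Id1 and Id3 were not called. Id1 stood at 13.21, 14.62 and 15.15 with BMP, at 13.56, 14.59 and 14.99 with CNTF and at 14.60, 14.86 and 15.35 in controls. The 3 groups overlapped, and the difference of 0.016 (SE 0.084, adjusted p = 0.934) had no fixed sign, with BMP higher in 4 of 6 pairs. Id3 stood at 14.68, 15.63 and 16.12 with BMP and at 14.84, 15.62 and 16.05 with CNTF. Its difference was -0.044 (SE 0.06, adjusted p = 0.723), with BMP higher in 2 of 6 pairs. Smad6, an inhibitory SMAD, was dim in both groups, at 8.69, 9.20 and 9.64 with BMP and 7.73, 8.95 and 9.28 with CNTF; its difference of 0.41 (SE 0.26, adjusted p = 0.376) was not called.

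Of 22 measured genes of the BMP-SMAD list, 5 were higher with BMP and 1 with CNTF, with a median difference of 0.38 (3 and 1 without the pairing). The list's called share was 27.3%, beside 16% of all named genes. Smad9, a receptor-activated SMAD of the BMP branch, stood at 11.32, 12.31 and 12.89 with BMP and at 9.33, 10.06 and 11.02 with CNTF. The groups did not overlap, the controls, at 10.15 to 12.07, reached into both, and the difference was 2.06 (SE 0.20, adjusted p = 0.000179); a dimmer second probe set of Smad9 differed by 0.48 (adjusted p = 0.279). The pseudoreceptor Bambi differed by 1.50 (adjusted p = 0.0202), the secreted antagonist Nog by 0.88 (adjusted p = 0.0234) and the transcription factor Gata3 by 0.95 (adjusted p = 0.00565). Id2 differed by 0.40 (SE 0.057, adjusted p = 0.00139), and its call was lost without the pairing (adjusted p = 0.0513). Another bright Id2 probe set differed by 0.86 (adjusted p = 0.000473). Tmem100, a membrane protein known as a BMP target in endothelium, went the other way, with 9.96, 10.58 and 11.55 with BMP against 11.42, 12.34 and 12.66 with CNTF (difference -1.48, SE 0.21, adjusted p = 0.00161). Leaving out pair 1 brought the list's genes higher with CNTF from 1 to 3.

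The start-proximal sequences of 4 genes are printed to show where letters usually taken to mark these pathways do and do not occur, Socs3 and Id1 as well-known targets of each pathway and Smad9 and Cish because they hold matches. They are the 250 bases before the start of each gene in RefSeq's GRCr8 assembly, written 5′ to 3′ on the gene's strand, with matches in capitals. The letters searched on both strands were TTCNNNGAA for STAT proteins, GGCGCC for the GC-rich SMAD element and TCACNCCAC for the sterol element. Socs3 and Id1 were fixed for display, and Smad9 and Cish were chosen after the matches had been seen. The windows are chr10:103694769-103695018 for Socs3 (minus strand), chr3:161671314-161671563 for Id1 (plus strand), chr2:141106418-141106667 for Smad9 (plus strand) and chr8:116850719-116850968 for Cish (plus strand).
Socs3: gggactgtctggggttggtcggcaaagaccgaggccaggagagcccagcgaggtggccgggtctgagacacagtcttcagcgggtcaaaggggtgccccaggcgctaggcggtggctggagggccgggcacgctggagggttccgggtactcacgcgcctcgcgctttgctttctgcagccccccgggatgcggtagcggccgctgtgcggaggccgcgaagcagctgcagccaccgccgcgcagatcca
Id1: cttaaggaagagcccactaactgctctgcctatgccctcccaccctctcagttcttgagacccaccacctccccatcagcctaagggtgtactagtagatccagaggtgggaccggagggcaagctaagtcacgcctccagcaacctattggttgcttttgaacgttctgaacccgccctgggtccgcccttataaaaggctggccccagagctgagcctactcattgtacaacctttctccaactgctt
Smad9: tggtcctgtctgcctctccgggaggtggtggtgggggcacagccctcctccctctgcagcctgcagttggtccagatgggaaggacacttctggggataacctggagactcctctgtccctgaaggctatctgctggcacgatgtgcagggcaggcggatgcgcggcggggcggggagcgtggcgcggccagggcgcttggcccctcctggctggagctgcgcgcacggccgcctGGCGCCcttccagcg
Cish: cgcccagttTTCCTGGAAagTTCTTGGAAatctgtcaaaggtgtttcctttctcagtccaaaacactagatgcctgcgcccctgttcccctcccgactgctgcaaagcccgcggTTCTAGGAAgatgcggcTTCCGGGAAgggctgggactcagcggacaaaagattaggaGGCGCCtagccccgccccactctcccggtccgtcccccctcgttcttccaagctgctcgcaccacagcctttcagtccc
The Smad9 window holds GGCGCC from -15 to -10 relative to the start. The Cish window holds 4 STAT matches, TTCCTGGAA, TTCTTGGAA, TTCTAGGAA and TTCCGGGAA, and 1 GGCGCC. No letters searched were found in the windows of Socs3, which differed by -3.0, and of Id1, which differed by 0.016, and Cish with its 4 matches differed by -0.11 (adjusted p = 0.749). A match, or the lack of one in 250 bases, says nothing about binding.

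Over the promoters found for the lists, GGCGCC was present in 8 of 17 of the BMP-SMAD genes (47.1%) and in 4 of the 5 with a call, against 15.5% of the 11733 promoters of measured genes. The other lists searched also lay above that share, with 6 of 18 gp130-STAT3 genes (33.3%), 4 of 15 oligodendrocyte and myelin genes (26.7%) and 3 of 13 cholesterol genes (23.1%). The BMP-SMAD windows were also richer in G and C, with a median of 68.4% against 59.2%, and whether the motif goes with base composition was not tested. The STAT letters were in 4 of 18 gp130-STAT3 promoters (22.2%) against 6.13% of measured genes, but in none of the 8 of called genes. The sterol letters were in none of the 13 cholesterol gene promoters, against 0.98% of measured genes.

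**Figure D3:**
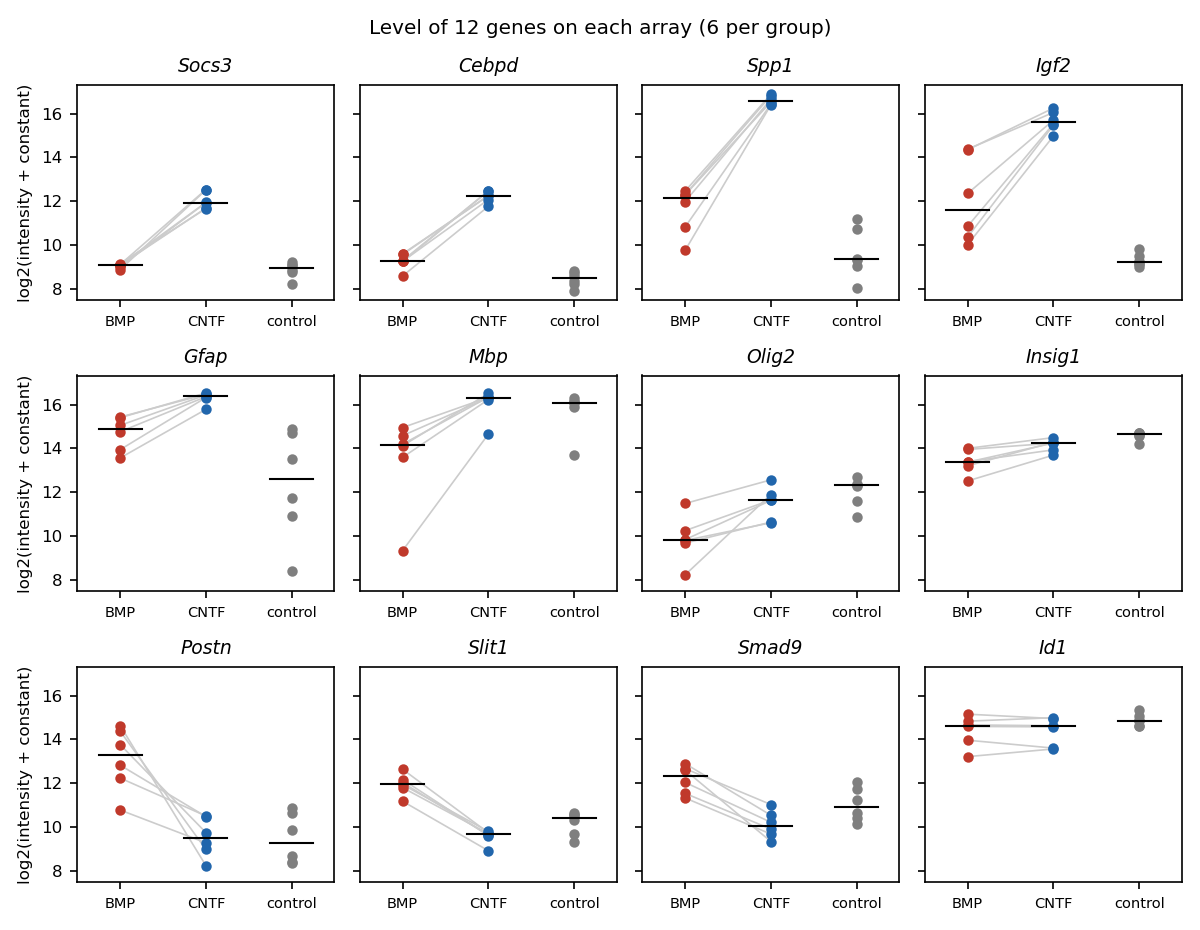
Level of 12 genes on each array (y axis, log2 of intensity plus constant), with BMP arrays in red, CNTF arrays in blue and control arrays in grey, 6 per group; black bars are medians and grey lines join same-numbered BMP and CNTF arrays. Socs3, Cebpd and Spp1 show CNTF arrays apart from the rest, Id1 shows 3 overlapping groups, and Postn, Slit1 and Smad9 are higher with BMP.

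Gfap, the intermediate filament gene that defines astrocytes, was higher with CNTF. It stood at 13.56, 14.90 and 15.43 with BMP, at 15.78, 16.40 and 16.53 with CNTF and at 8.39, 12.62 and 14.89 in controls. All CNTF arrays lay above all BMP arrays, by -1.63 (SE 0.17, adjusted p = 0.00024), in each of the 6 pairs. When the 6 control arrays were added to the fit the call was lost (adjusted p = 0.0957).

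The rest of the astrocyte list did not follow Gfap. Of 23 measured astrocyte markers, 6 were higher with BMP and 4 with CNTF, with a median of 0.10, and without the pairing these counts were 3 and 1. Higher with CNTF beside Gfap were the glutamate transporter Slc1a3 (-0.59, SE 0.11, adjusted p = 0.00717), the membrane protein Mlc1 (-0.78) and the sodium pump subunit Atp1b2 (-0.49). Higher with BMP were the bicarbonate cotransporter Slc4a4 (1.15, SE 0.11, adjusted p = 0.000184), the gliogenic transcription factors Nfia (0.80, SE 0.064, adjusted p = 5.54e-05) and Nfib (0.52), the hydrogen sulphide enzyme Cbs (1.40), the lipid carrier Apoe (1.17) and the calcium-binding protein S100b (0.41, SE 0.073, adjusted p = 0.0048). Slc4a4 ranged over 13.19, 14.29 and 14.48 with BMP and 11.77, 13.06 and 13.78 with CNTF, so its groups overlapped although BMP was higher in every pair. Without the pairing the calls of Slc1a3 (adjusted p = 0.0946), Nfia (0.0836) and S100b (0.668) were lost. A second, bright probe set of Slc1a3 differed by -0.67 (adjusted p = 0.00968), and a dimmer one by 0.18 (0.603).

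The water channel Aqp4, the marker of astrocyte endfeet, stood at 13.64, 14.90 and 15.32 with BMP and at 12.30, 14.80 and 15.15 with CNTF. The groups overlapped and the difference of 0.42 (SE 0.16, adjusted p = 0.119) was not called; without pair 3 it was 0.56 and was called (adjusted p = 0.0478). A second bright probe set of Aqp4 differed by 0.50 and was called (adjusted p = 0.037), and a dimmer one by 0.34 (0.155). The connexin Gja1 (0.27), the glutamate transporter Slc1a2 (0.27), glutamine synthetase Glul (-0.14) and Fabp7 (-0.003) were not called.

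Of 25 measured genes known from reactive astrocytes, 4 were higher with CNTF and 1 with BMP, with a median of -0.16. The called share of 20% lay near the 16% of all named genes, so the count does not set this list apart. Only 13 of the 25 genes passed a filter on dim probe sets. The small heat shock protein gene Hspb1 stood at 11.59, 12.36 and 14.95 with BMP, at 14.45, 16.02 and 16.33 with CNTF and at 8.28, 9.01 and 11.52 in controls. Its treated groups overlapped at the edge, and the difference was -2.78 (SE 0.46, adjusted p = 0.00311). The pair differences were uneven, from -0.57 in number 1 to -4.26 in number 5. The complement inhibitor Serping1 differed by -2.35 (SE 0.26, adjusted p = 0.000373), the sphingosine kinase Sphk1 by -1.73 (SE 0.26, adjusted p = 0.00179) and Timp1 by -1.18 (SE 0.15, adjusted p = 0.000625). The membrane protein gene Emp1 was higher with BMP (2.07, adjusted p = 0.0174), and this call was the list's only one in that direction and was lost without pair 3. Without pair 1, the genes higher with CNTF numbered 7. Lcn2 (-0.15), Serpina3n (-0.09), C3 (-0.23) and Cd44 (-0.50) were not called.

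Oligodendrocyte lineage genes formed a broad block higher with CNTF. Of 11 measured precursor markers, 8 were higher with CNTF and none with BMP, with a median of -1.36. Of 19 oligodendrocyte and myelin genes, 13 were higher with CNTF and none with BMP, with a median of -1.47. Without the pairing these counts were 6 and 12. Among the regulators, Sox10, which directs the lineage, stood at 9.20, 11.06 and 13.07 with BMP, at 12.90, 12.95 and 13.96 with CNTF and at 12.55, 13.21 and 13.94 in controls. The CNTF arrays lay within or near the control range and most BMP arrays below it, with a difference of -2.05 (SE 0.29, adjusted p = 0.00134). Olig2 stood at 8.22, 9.81 and 11.48 with BMP and at 10.60, 11.63 and 12.56 with CNTF, a difference of -1.62 (SE 0.32, adjusted p = 0.00903). Its call was lost without the pairing (adjusted p = 0.0551), and a second, dim Olig2 probe set differed by -0.10 (adjusted p = 0.818). Myrf, the factor that switches on myelin genes, stood at 7.55, 10.18 and 12.22 with BMP and at 12.31, 13.28 and 13.85 with CNTF. Every CNTF array was above every BMP array, by -3.06 (SE 0.33, adjusted p = 0.000308).

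Surface and myelin genes of the lineage followed the same direction. Pdgfra, the receptor that marks precursors, stood at 11.89, 12.88 and 14.32 with BMP, at 13.77, 14.54 and 14.83 with CNTF and at 14.12, 14.78 and 15.22 in controls, with a difference of -1.51 (SE 0.28, adjusted p = 0.00591). The tetraspanin Cd9 (-1.36, SE 0.086, adjusted p = 1.64e-05), Lhfpl3 (-1.75, SE 0.17, adjusted p = 0.000156), Sox6 (-0.69, SE 0.10, adjusted p = 0.00133) and the homeodomain factor Nkx2-2 (-1.90) were also higher with CNTF. The proteoglycan Cspg4 (NG2) differed by -0.84 (SE 0.12, adjusted p = 0.00139), a call lost without the pairing (adjusted p = 0.066). Mag, an adhesion protein of the inner myelin layer, stood at 8.01, 10.12 and 11.28 with BMP and at 10.89, 13.88 and 14.90 with CNTF, and differed by -3.51 (SE 0.23, adjusted p = 2.22e-05). The tight junction protein of myelin Cldn11 stood at 8.54, 12.20 and 12.98 with BMP and at 13.09, 15.48 and 16.11 with CNTF, without overlap, a difference of -3.46 (SE 0.22, adjusted p = 1.64e-05). In both genes the array of number 1 was the lowest of its group.

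Mbp, which encodes myelin basic protein, stood at 9.33, 14.15 and 14.95 with BMP, at 14.65, 16.32 and 16.51 with CNTF and at 13.68, 16.08 and 16.30 in controls. Number 1 gave the lowest BMP and CNTF value, and the 6 pair differences were -5.32, -2.15, -2.39, -2.63, -1.73 and -1.38. The mean difference was -2.60 (SE 0.41, adjusted p = 0.0027), lost without the pairing (adjusted p = 0.0639). Further Mbp probe sets differed by -3.36 (adjusted p = 3.05e-05) and -2.46 (adjusted p = 9.4e-06) in the paired model. The deacetylase Sirt2 (-1.33, SE 0.084, adjusted p = 1.64e-05), the plasma membrane proteolipid Pllp (-3.24, SE 0.32, adjusted p = 0.000179) and the myelin lipid enzymes Ugt8 (-2.36), Gal3st1 (-2.06) and Fa2h (-1.47) were higher with CNTF as well. Mog (-0.50), Mobp (-0.48), Opalin (-0.51), Mal (-0.07), Ermn (-0.01) and Aspa (0.21) were not called. Only 14 of the 19 oligodendrocyte and myelin genes passed a filter on dim probe sets, and 13 were called with that filter. With a constant of 16 the count higher with CNTF was 13 too. Whether the missing calls go with low signal was not tested.

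All 16 measured genes of cholesterol synthesis were higher with CNTF in all 6 pairs, with small differences between -0.81 and -0.32 and a median of -0.53. Lss, the enzyme that closes the sterol rings, stood at 11.93, 12.28 and 12.93 with BMP, at 12.57, 13.12 and 13.56 with CNTF and at 12.95, 13.54 and 13.71 in controls. The treated groups overlapped, and the difference was -0.81 (SE 0.10, adjusted p = 0.000777). Insig1, the sensor that retains the sterol regulator in the endoplasmic reticulum, differed by -0.74 (adjusted p = 0.00201), the last enzyme of the pathway, Dhcr7, by -0.68 (SE 0.084, adjusted p = 0.00062) and the regulator Srebf2 by -0.38 (SE 0.048, adjusted p = 0.000723). The calls of this list rested on the pairing: without it 3 of 16 remained past the threshold, and those of Dhcr7 (adjusted p = 0.0637) and Srebf2 (0.254) were lost. With any 1 pair left out the paired count stayed at 16.

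Fatty acid genes went the same way, with 10 of 14 higher with CNTF, none with BMP and a median of -0.45; the count was 6 without pair 5 and 4 without the pairing. Acss2, which makes acetyl-CoA from acetate, stood at 11.84, 12.09 and 12.60 with BMP and at 12.99, 13.22 and 13.74 with CNTF. Its groups did not overlap, with a difference of -1.14 (SE 0.076, adjusted p = 2.22e-05). The desaturases Fads1 (-0.54, SE 0.079, adjusted p = 0.00161), Fads2 (-0.44, SE 0.089, adjusted p = 0.00929) and Scd (-0.61) were higher with CNTF, and Fads2 lost its call without the pairing (adjusted p = 0.0601). Srebf1, the fatty acid regulator, differed by -0.07 and was not called.

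Hypoxia and glycolysis genes were also higher with CNTF, 12 of 18 with none higher with BMP and a median of -0.47, but only 2 without the pairing. Pfkfb3, the activator of phosphofructokinase, stood at 11.12, 11.32 and 11.93 with BMP and at 12.21, 12.36 and 12.75 with CNTF, without overlap, and differed by -1.0 (SE 0.13, adjusted p = 0.001). A second, dim Pfkfb3 probe set differed by 0.16 (adjusted p = 0.661). The mitophagy gene Bnip3 (-0.63, SE 0.069, adjusted p = 0.000356) and Vegfa (-0.52, SE 0.054, adjusted p = 0.000251) lost their calls without the pairing (adjusted p = 0.186 and 0.312). The stress gene Ndrg1 (-1.79), the oxygen-sensing hydroxylase Egln3 (-1.35) and the glucose transporter Slc2a1 (-0.75) were higher with CNTF, whereas the enzymes Ldha (-0.14), Aldoa (-0.15) and Eno1 (0.04) were not called.

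**Figure D4:**
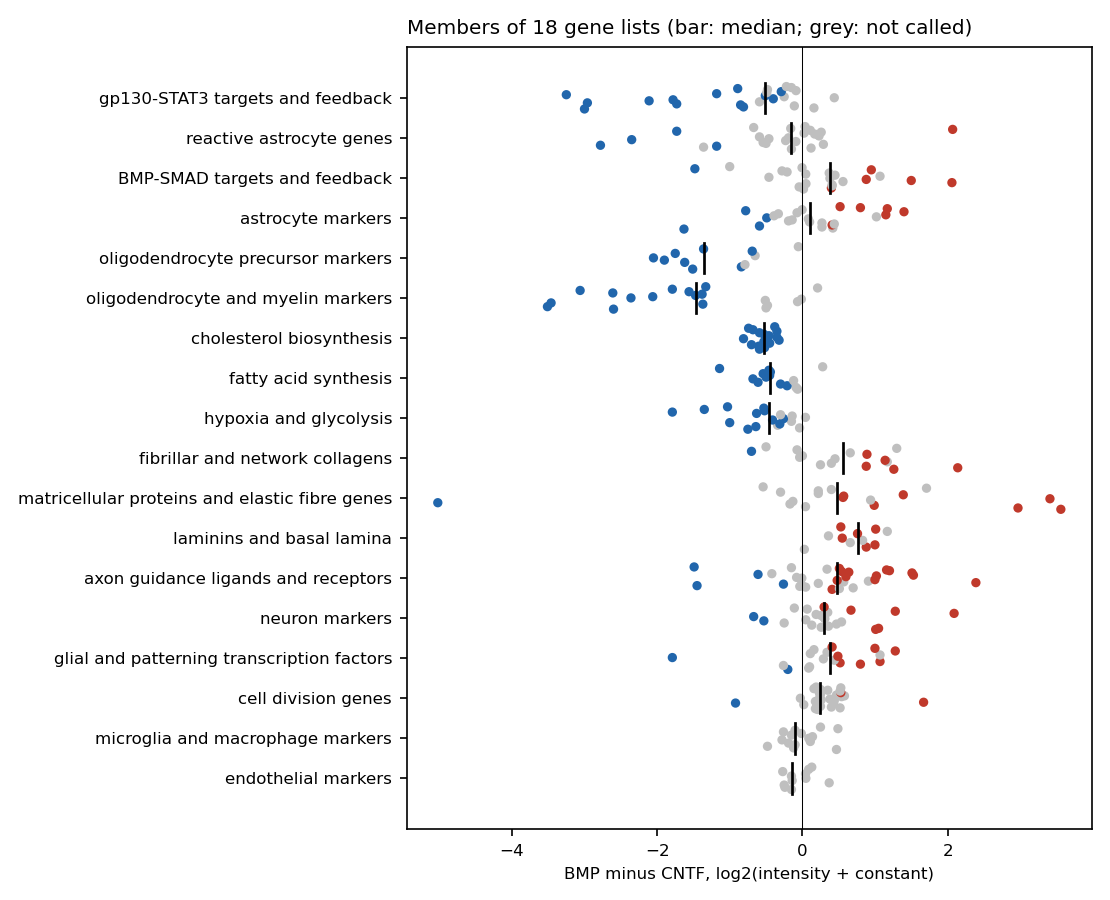
BMP minus CNTF difference (x axis, log2 of intensity plus constant) of every measured member of 18 gene lists (y axis), with called members in red (BMP higher) or blue (CNTF higher), the others in grey and the list median as a black bar. The 16 cholesterol genes lie between -0.81 and -0.32, the oligodendrocyte and myelin genes have a median of -1.47, the laminins a median of 0.76, and no microglia or endothelial marker is coloured.

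Of 18 matricellular and elastic fibre genes, 7 were higher with BMP and 1 with CNTF, with a median of 0.48 (4 and 1 without the pairing, and 2 higher with CNTF without pair 1). Postn (periostin), a matricellular protein, stood at 10.77, 13.29 and 14.63 with BMP and at 8.23, 9.51 and 10.50 with CNTF. The groups did not overlap, but the 6 pair differences of 6.39, 5.40, 4.02, 1.50, 1.73 and 2.35 were uneven, with a mean of 3.56 (SE 0.60, adjusted p = 0.00369). Eln, the elastin gene, stood at 10.78, 12.18 and 13.87 with BMP and at 7.11, 9.09 and 9.41 with CNTF, without overlap, and differed by 3.41 (SE 0.42, adjusted p = 0.000652). Tnc (tenascin C), a matrix protein of immature glia, stood at 11.97, 14.28 and 15.65 with BMP, at 9.21, 11.12 and 13.10 with CNTF and at 12.06, 13.57 and 14.77 in controls. BMP was higher in every pair, by 2.97 (SE 0.25, adjusted p = 6.77e-05), and the CNTF median lay below the lowest control array. Fbln2 (1.39), Sparc (0.99), Fbln1 (0.57) and Fbn1 (0.56) were the other members higher with BMP, and Fn1 (-0.13) was not called.

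The member higher with CNTF was Spp1 (osteopontin), a secreted phosphoprotein with cytokine functions, which had the largest difference of all genes named here. It stood at 9.75, 12.13 and 12.46 with BMP, at 16.40, 16.59 and 16.88 with CNTF and at 8.01, 9.34 and 11.16 in controls. The CNTF arrays lay within a narrow band far above every other array, and the difference was -5.02 (SE 0.28, adjusted p = 9.4e-06), or 32.4-fold.

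Basal lamina genes were higher with BMP in 6 of 11 with none higher with CNTF and a median of 0.76, and in 5 without the pairing. Lama4, a laminin chain, stood at 12.28, 12.80 and 13.34 with BMP and at 11.17, 11.82 and 12.35 with CNTF, a difference of 1.0 (SE 0.064, adjusted p = 1.64e-05). Nid1, which links laminin to collagen IV, differed by 0.76 (SE 0.10, adjusted p = 0.00118) and Agrn, a heparan sulphate proteoglycan, by 0.53 (SE 0.054, adjusted p = 0.00023). Hspg2 (1.01), Lama2 (0.88) and Lamb2 (0.55) completed the set, and the largest difference of the list, Nid2 (1.17), was not called.

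Of 16 collagen genes, 5 were higher with BMP and 1, Col4a1 (-0.70), with CNTF, with a median of 0.56. Col1a2 stood at 11.49, 12.62 and 14.38 with BMP and at 8.82, 10.89 and 11.82 with CNTF, and differed by 2.14 (SE 0.38, adjusted p = 0.00495). Col1a1 (1.26, SE 0.18, adjusted p = 0.00163) and Col3a1 (0.88, SE 0.11, adjusted p = 0.000836) lost their calls without the pairing (adjusted p = 0.18 and 0.478), and the list then kept a count of 1. Without pair 1 or pair 3 the count higher with BMP was 3, and without pair 4, 5 or 6 Col4a1 was not called. Of 14 fibroblast and mural markers, 4 were higher with BMP: these 3 collagens and Pdgfrb (0.71). Only 3 of the 14, the same collagens, reached the table median of 9.75 in the mean of either group. Bright genes weigh most in the summed level of that list. It ranged over 12.91 to 15.04 with BMP, 11.26 to 13.65 with CNTF and 11.80 to 13.52 in controls. Dcn (-0.12), Lum (-0.25) and Twist1 (0.35) were not called. The part of fibroblast and mural cells in the matrix result was not tested. Of 12 small leucine-rich proteoglycans and lysyl oxidases, 3 were higher with BMP (1 without pair 1, 2, 3 or 5, and none without the pairing); Fmod differed by 1.90 (SE 0.42, adjusted p = 0.0159), lost without the pairing (adjusted p = 0.119).

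Brain chondroitin sulphate proteoglycan genes showed no common direction, with 2 of 14 called on either side, none without the pairing, and a median of -0.10; the count higher with BMP was 1 when any 1 pair was left out. Ncan (neurocan) differed by 0.68 (SE 0.10, adjusted p = 0.00179) and the chain-starting enzyme Csgalnact1 by -0.94 (SE 0.26, adjusted p = 0.0376). Both calls were lost without the pairing (adjusted p = 0.378 and 0.159), and that of Csgalnact1 also without pair 2, 3 or 6. Among metalloproteinases and their inhibitors, 4 of 16 were called on either side; the count higher with BMP was 2 without pair 2, 3, 5 or 6, and 1 without the pairing. Adamts4, an aggrecan-cleaving protease that oligodendrocytes also express, stood at 8.97, 9.51 and 10.06 with BMP and at 11.05, 12.46 and 12.75 with CNTF, without overlap, a difference of -2.57 (SE 0.21, adjusted p = 5.58e-05). The membrane protease Mmp17 differed by -1.32 (SE 0.12, adjusted p = 0.00012). Mmp14 (0.60), Mmp2 (0.77), Timp2 (0.44) and Timp4 (0.97) were higher with BMP.

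Of 31 axon guidance genes, 13 were higher with BMP and 4 with CNTF, with a median of 0.48 (7 and 2 without the pairing), and the rest were not called. Slit1, a secreted repellent of growth cones, stood at 11.17, 11.98 and 12.63 with BMP, at 8.91, 9.66 and 9.79 with CNTF and at 9.30, 10.43 and 10.63 in controls. BMP arrays lay above every other array, and the difference from CNTF was 2.39 (SE 0.12, adjusted p = 7.79e-06). Efna5, an ephrin ligand, stood at 11.16, 11.55 and 11.88 with BMP and at 9.73, 10.03 and 10.47 with CNTF, again without overlap, and differed by 1.51 (SE 0.089, adjusted p = 1.16e-05). Robo2, a Slit receptor, stood at 14.01, 14.33 and 14.51 with BMP and at 12.98, 13.26 and 13.65 with CNTF, and differed by 1.0 (SE 0.10, adjusted p = 0.000188). The ephrin receptors Epha5 (1.53) and Epha4 (1.02), the semaphorin receptors Nrp1 (1.20) and Nrp2 (1.16), and Rgma (0.51), a repulsive molecule that is also a BMP co-receptor, were higher with BMP. Higher with CNTF were Omg (-1.49), a myelin inhibitor of axon growth, Sema4d (-1.45), Epha7 (-0.61) and Sema6a (-0.26). Netrin Ntn1 (-0.03) and Rtn4 (-0.15), which encodes Nogo, were not called.

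Growth factor genes split in both directions, 8 of 25 higher with BMP and 4 with CNTF, with a median of 0.12 (4 and 2 without the pairing). Igf2, the fetal insulin-like growth factor, stood at 10.01, 11.60 and 14.37 with BMP, at 14.97, 15.62 and 16.25 with CNTF and at 9.0, 9.20 and 9.81 in controls. All treated arrays lay above all controls and all CNTF arrays above all BMP arrays, with a difference of -3.62 (SE 0.45, adjusted p = 0.000712). The pair differences were uneven, at -1.90, -1.68, -3.36, -4.96, -5.11 and -4.68 for numbers 1 to 6. The other 3 Igf2 probe sets were dim and differed by -0.26, -0.12 and -0.065, none called. The vascular factors differed in opposite directions, with Vegfc at 0.79 (SE 0.10, adjusted p = 0.000608, lost without the pairing at 0.0856) and Vegfa at -0.52. Tgfb1 (1.25), Igf1 (1.23), Bmp6 (1.17) and Fgf1 (0.93) were higher with BMP, and Bmp4 (-1.54) and Pdgfa (-0.88) with CNTF. Neither Bdnf (0.08), Gdnf (-0.11), Lif (-0.12) nor Cntf (-0.10) was called.

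The binding proteins and receptors of the same growth factors had 3 of 11 members higher with BMP and 2 with CNTF, with a median of 0.03 (3 and none without the pairing). Igfbp5 stood at 14.36, 15.27 and 15.95 with BMP and at 13.44, 14.30 and 14.68 with CNTF, and differed by 1.03 (SE 0.083, adjusted p = 5.76e-05). Igf2r, which clears Igf2 from the cell surface, stood at 13.23, 13.39 and 14.44 with BMP and at 12.54, 12.66 and 13.07 with CNTF, without overlap, a difference of 0.91 (SE 0.13, adjusted p = 0.00117). It was thus higher in the group in which Igf2 was lower. Igfbp7 (1.68) was higher with BMP, and Igfbp4 (-0.75, SE 0.13, adjusted p = 0.00398) with CNTF, a call lost without the pairing (adjusted p = 0.0678).

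In the Wnt list, 7 of 19 genes were higher with BMP and 5 with CNTF, with a median of 0.44 (4 and 2 without the pairing). Dkk3, a secreted member of the Dickkopf family, stood at 12.70, 13.53 and 13.71 with BMP and at 11.17, 11.69 and 12.19 with CNTF. These groups did not overlap, with a difference of 1.66 (SE 0.16, adjusted p = 0.00014); its 3 dimmer probe sets differed by 0.23, 0.52 and 0.70, none called. Norrin, Ndp, an alternative ligand of a Wnt receptor, differed by 1.22 (SE 0.12, adjusted p = 0.000154). The pathway targets Axin2 (0.84), Nkd1 (0.99) and Lef1 (1.35) and the inhibitor Wif1 (1.43) were higher with BMP. Dimmer probe sets of Nkd1 differed by 0.26 and 0.39, neither called, and that of Lef1 by 1.63, which was called. Tcf7l2, a Wnt-effector that is also abundant in newly forming oligodendrocytes, stood at 13.03, 13.30 and 13.96 with BMP and at 14.12, 14.32 and 14.94 with CNTF, without overlap, a difference of -1.03 (SE 0.059, adjusted p = 1.03e-05). Wnt4 (-1.09) and Sfrp1 (-0.63) were also higher with CNTF.

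Of 19 Notch genes, 5 were higher with BMP and 1 with CNTF, with a median of 0.07, and without the pairing only 1 was called. Dtx4 differed by 1.05 (SE 0.093, adjusted p = 9.47e-05), the effector Hey2 by 0.63 (SE 0.077, adjusted p = 0.000593) and the Notch glycosyltransferase Mfng by -0.54 (SE 0.11, adjusted p = 0.0123). The calls of Hey2 (adjusted p = 0.214) and Mfng (0.316) were lost without the pairing, and the count higher with CNTF was 2 without pair 1 and 3 without pair 5. The ligand Jag1 (0.74) was higher with BMP, while Hes1 (0.10), Hes5 (-0.27) and Notch1 (0.07) were not called. In the FGF feedback list, 3 of 14 were higher with BMP and 1 with CNTF, with a median of 0.26, 1 without pair 6 and none without the pairing. The ETS factors Etv4 (1.49, SE 0.24, adjusted p = 0.0029) and Etv5 (0.88, SE 0.20, adjusted p = 0.0179) and the receptor Fgfr2 (-0.43, SE 0.076, adjusted p = 0.00433) lost their calls without the pairing (adjusted p = 0.137, 0.211 and 0.103), Etv5 also without pair 6 (adjusted p = 0.0585). In the paired model the dimmer Fgfr2 probe sets differed by -0.33, -0.44, -0.50 and -0.19, none called. A dimmer Etv5 probe set differed by 0.16 and was not called, and one of Etv4 by 1.39 and was called.

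Neuronal genes were detected in both groups. Of 22 neuron markers, 6 were higher with BMP and 2 with CNTF, with a median of 0.30 (2 and 2 without the pairing). Gad1, the GABA-synthesising enzyme, stood at 9.0, 10.96 and 12.08 with BMP, at 7.83, 8.58 and 9.71 with CNTF and at 7.57, 8.30 and 8.46 in controls. All BMP arrays lay above the controls, and the difference from CNTF was 2.09 (SE 0.33, adjusted p = 0.00241). The synaptic vesicle sensor Syt1 differed by 1.05 (SE 0.14, adjusted p = 0.00109) and the fusion protein Snap25 by 1.01 (SE 0.12, adjusted p = 0.000597), the latter lost without the pairing (adjusted p = 0.0554). The vesicular transporters Slc17a6 (1.28) and Slc32a1 (0.67) were also higher with BMP. The RNA-binding protein Elavl3 (-0.53, SE 0.075, adjusted p = 0.00144) and the growth cone protein Gap43 (-0.67) were higher with CNTF, and Map2 (0.13), Tubb3 (0.36) and Rbfox3 (0.26) were not called. Another Rbfox3 probe set differed by 0.48 and was called in the paired limma model (adjusted p = 0.03).

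Among secretory peptides, 5 of 14 were higher with BMP and 1, Vgf (-0.82), with CNTF, with a median of 0.39 (2 and none without the pairing). Npy (neuropeptide Y) stood at 10.95, 11.69 and 12.30 with BMP, at 8.33, 9.21 and 10.33 with CNTF and at 8.35, 9.10 and 10.34 in controls. The BMP arrays lay above all others, and the difference from CNTF was 2.28 (SE 0.37, adjusted p = 0.00314). The processing enzyme Cpe (0.42, SE 0.08, adjusted p = 0.00717) and the convertase chaperone Scg5 (1.02, SE 0.14, adjusted p = 0.00113) were higher with BMP, Scg5 losing its call without the pairing (adjusted p = 0.154). The call of Vgf was lost without pair 3, 5 or 6. Somatostatin Sst (-1.21, adjusted p = 0.0571) and galanin Gal (-1.35, adjusted p = 0.074) were not called. Of 18 genes of glutamate, glycine and GABA handling, 2 were higher with BMP and 3 with CNTF, with a median of 0.04 (1 and 1 without the pairing); the amino acid transporter Slc38a1 differed by 0.37 (SE 0.05, adjusted p = 0.00105, lost without the pairing at 0.103) and the glutamate transporter Slc1a1 by -1.40. Of 13 potassium channel and gap junction genes, Kcnab1 (0.94, SE 0.15, adjusted p = 0.00249) and Kcnd3 (0.57, SE 0.09, adjusted p = 0.00265) were higher with BMP and Kcna1 (-1.81) with CNTF; the count higher with BMP was 4 without pair 2.

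Among 18 glial and patterning transcription factors, 7 were higher with BMP and 2 with CNTF, with a median of 0.38 (4 and 1 without the pairing, and 1 higher with CNTF without pair 1, 2, 4 or 5). Nfix, of the nuclear factor I family that promotes gliogenesis, stood at 13.29, 13.91 and 14.55 with BMP and at 12.43, 12.65 and 13.75 with CNTF, and differed by 1.07 (SE 0.083, adjusted p = 4.8e-05). Hoxc8, a gene of positional identity along the cord, stood at 11.50, 11.78 and 11.94 with BMP and at 10.41, 10.72 and 10.95 with CNTF, without overlap, and differed by 1.0 (SE 0.076, adjusted p = 4.11e-05). Zic2 (1.28) and Hoxd8 (0.41) were higher with BMP, and Nkx6-2 (-1.79), an oligodendrocyte factor, with CNTF. Of 12 stem and radial glia markers, Prom1 (0.54, SE 0.075, adjusted p = 0.00131) and Pax6 (0.49, SE 0.089, adjusted p = 0.00533) were higher with BMP, and Nes (-0.48), Vim (-0.24, SE 0.061, adjusted p = 0.0304) and Sox2 (-0.20, SE 0.052, adjusted p = 0.0296) with CNTF. None of these calls held without the pairing (Prom1 0.156, Pax6 0.199, Vim 0.181, Sox2 0.17). Leaving out any 1 pair left 1 call of the 3 on the CNTF side: Vim lost its call without pair 1, 2, 3, 5 or 6, and Sox2 without pair 1, 2, 4 or 5. Vim was bright on all arrays, at 16.40 to 16.90 with BMP and 16.75 to 16.94 with CNTF.

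Few proliferation genes were called. Of 29 cell division genes, 2 were higher with BMP and 1 with CNTF, with a median of 0.25. The called share was 10.3%, beside 16% of all named genes. All 29 genes passed the filter on dim signals, under which 4361 of 19311 probe sets were called. Mki67, the antigen of cycling cells, stood at 11.59, 13.04 and 14.06 with BMP and at 11.87, 12.48 and 14.22 with CNTF, with a difference of 0.21 (SE 0.21, adjusted p = 0.602) and BMP higher in 3 of 6 pairs. The D-type cyclins went apart: Ccnd2 stood at 13.94, 14.80 and 15.31 with BMP and at 11.90, 13.03 and 14.16 with CNTF, a difference of 1.67 (SE 0.19, adjusted p = 0.000371), and Ccnd1 differed by -0.92 (SE 0.23, adjusted p = 0.026). The calls of Ccnd1 (adjusted p = 0.187) and of the nucleotide enzyme Tyms (0.53, SE 0.12, adjusted p = 0.0164, then 0.312) were lost without the pairing, Ccnd1 also without pair 2 or 5 and Tyms without pair 2 or 6. Of 12 cell cycle inhibitors, Cdkn1c (-1.11, SE 0.16, adjusted p = 0.00136) and Cdkn2b (-0.85) were higher with CNTF and Cdkn1a (0.49, SE 0.10, adjusted p = 0.0123) with BMP; without the pairing none was called (Cdkn1c 0.0816, Cdkn1a 0.758). Cdkn1a also lost its call without pair 5 and with the controls in the fit (adjusted p = 0.302), and the count higher with CNTF was 1 without pair 1, 3, 4 or 6.

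The called shares of immune and stress lists varied, beside 16% of all named genes. They were 27.8% for cytokines and chemokines, 27.3% for complement genes and 4.76% for interferon genes. For stress and unfolded protein genes the share was 37.5%, and for antioxidant genes 36.8%. The filter on dim signals, under which calls were more common, left all 19 antioxidant and 14 of 16 stress genes. It left 8 of 18 cytokines and chemokines, 4 of 11 complement genes and 8 of 21 interferon genes. Of 18 cytokines and chemokines, 1 was higher with BMP and 4 with CNTF, with a median of 0.09; the latter count was 2 without pair 3, 4, 5 or 6 and none without the pairing. The alarmin Il33 stood at 10.72, 12.18 and 12.83 with BMP, at 9.63, 10.30 and 10.87 with CNTF and at 11.22, 12.18 and 12.70 in controls. The BMP and control medians were equal and the CNTF arrays lay below the controls, with a BMP minus CNTF difference of 1.76 (SE 0.28, adjusted p = 0.00277). Cxcl14 (-1.19, SE 0.16, adjusted p = 0.00114) and Il18 (-0.80, SE 0.19, adjusted p = 0.0201) were higher with CNTF and lost their calls without the pairing (adjusted p = 0.138 and 0.152), Il18 also without pair 2 or 4. Tnfaip6, a secreted hyaluronan-binding protein induced in inflammation, stood at 9.72, 10.26 and 11.44 with BMP and at 11.86, 13.79 and 14.73 with CNTF, without overlap, and differed by -3.26 (SE 0.42, adjusted p = 0.000783). Of 21 interferon genes, only Stat2 (-0.53) was called, with 2 called without pair 2 and none without the pairing. Of 11 complement genes, Serping1 and Cfi (-1.23) were higher with CNTF and C1s (1.20, SE 0.26, adjusted p = 0.0132, lost without the pairing at 0.113) with BMP; the count higher with CNTF was 1 without pair 2, 3, 5 or 6.

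The small heat shock genes pointed in opposite directions. Against Hspb1, higher with CNTF, stood Cryab (alpha-B-crystallin), with 10.95, 12.92 and 15.23 with BMP, 7.70, 9.07 and 10.63 with CNTF and 8.92, 9.46 and 9.73 in controls. Its BMP arrays lay above every other array, with a difference of 3.59 (SE 0.44, adjusted p = 0.000608). The pair differences fell from 6.10 in number 1 to 2.40 in number 6. Over the 16 stress and unfolded protein genes, 2 were higher with BMP and 4 with CNTF, with a median of 0.06; the count higher with BMP was 1 without pair 1, 2, 3 or 5 and without the pairing. Hspa5 (0.12), Ddit3 (-0.04) and Atf4 (-0.02) were not called. The asparagine synthetase Asns differed by -0.43 (SE 0.07, adjusted p = 0.00281) and Atf3 by -1.66. Of 19 antioxidant genes, 3 were higher with BMP and 4 with CNTF, with a median of -0.01 (1 and none without the pairing). The cystine transporter Slc7a11 (-1.75, SE 0.25, adjusted p = 0.00151), Gstp1 (-0.47, SE 0.066, adjusted p = 0.00139) and Gsta4 (0.79, SE 0.091, adjusted p = 0.000455) lost their calls without the pairing (adjusted p = 0.0581, 0.169 and 0.079).

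Markers of other cell types were checked against the spinal cord label. None of 15 microglia and 11 endothelial markers was called, and none reached the median of the table (9.75) in the mean of either group. The summed level of the microglia list ranged over 10.37 to 10.83 with BMP and 10.33 to 10.85 with CNTF, and that of the endothelial list over 9.97 to 11.29 and 10.57 to 10.94. By contrast 21 of 23 astrocyte markers, all 11 precursor markers, 14 of 19 myelin markers and 18 of 22 neuron markers reached that level. Of 9 Schwann cell and neural crest markers, Sox10 and Pmp22 (-0.87, SE 0.20, adjusted p = 0.0191) were higher with CNTF, Pmp22 losing its call without pair 3 or 5, and Prx (0.03) and Ngfr (0.28) were not called; the count was 4 without pair 1. Of 15 smooth muscle genes only Cnn3 (-0.37) was called, although Tagln (1.51) and Tpm2 (1.63) had larger differences.

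Several of the largest differences on the BMP side lay in genes outside these lists. Ecrg4, a secreted peptide precursor of the choroid plexus and glia, stood at 11.47, 14.16 and 15.27 with BMP, at 8.90, 10.10 and 11.11 with CNTF and at 9.25, 10.31 and 12.03 in controls. Its treated groups did not overlap, and the difference of 3.61 (SE 0.26, adjusted p = 3.05e-05) was the largest called with BMP among genes that met the naming rule. The sulphate donor enzyme Papss2 stood at 10.92, 11.96 and 13.35 with BMP and at 8.10, 8.57 and 8.78 with CNTF, below the controls at 9.35 to 11.19, and differed by 3.43 (SE 0.30, adjusted p = 9.27e-05). The cartilage cytokine Cytl1 (3.59, SE 0.37, adjusted p = 0.000217), the secreted protein Nell1 (2.81, SE 0.32, adjusted p = 0.00045) and the melanocortin receptor Mc4r (2.86, SE 0.26, adjusted p = 0.000122) were higher with BMP. So were the myosin-binding protein Mybpc1 (3.13, SE 0.54, adjusted p = 0.00408) and the transcription factor Tfap2b (2.51, SE 0.27, adjusted p = 0.000329). The groups did not overlap for Cytl1, Nell1, Mc4r and Tfap2b. The naming rule had required the same sign in every pair. C1qtnf3 differed by 3.21 (SE 0.74, adjusted p = 0.0187), with pair differences from 1.0 to 6.5, and lost its call without the pairing (adjusted p = 0.055). On the CNTF side, Pcp4l1 (-3.21, SE 0.44, adjusted p = 0.00114) and the septin Septin4 (-2.86, SE 0.41, adjusted p = 0.00152) had their smallest pair differences in number 1.

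**Figure D5:**
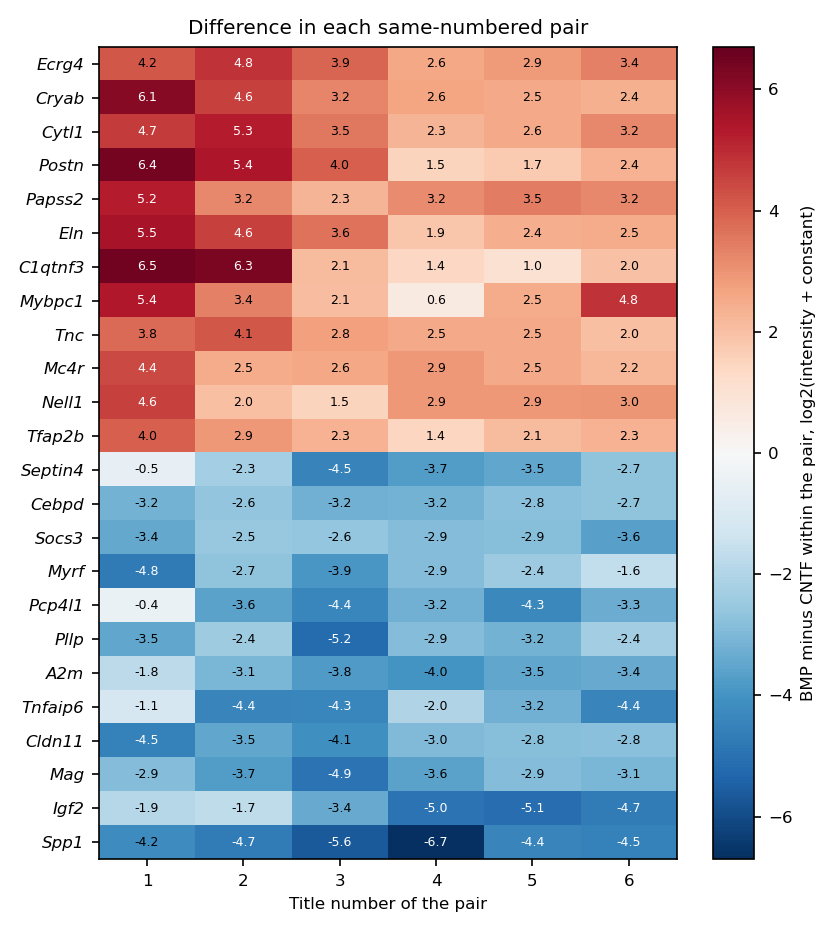
Difference within each same-numbered pair (columns 1 to 6) for the 12 genes with the largest differences in each direction (one gene per line), as BMP minus CNTF in log2 of intensity plus constant; red is higher with BMP and blue higher with CNTF. The 24 genes were chosen only among genes with the same sign in 6 of 6 pairs, so their constant sign is no result. Socs3 and Cebpd are even across pairs, and Postn runs from 1.50 to 6.39.

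The control arrays placed the differences relative to material given neither factor, with the limit that the controls have no labelled time. Of 292 named genes called at least 2-fold higher with BMP (2.05% of named genes), the control median lay between the groups and nearer CNTF for 129, between and nearer BMP for 53, below both for 102 and above both for 8. Of 236 called at least 2-fold higher with CNTF (1.66%), it lay nearer CNTF for 82, nearer BMP for 45, below both for 63 and above both for 46. Socs3 is an example in which CNTF alone stood away from the controls, and Slit1 and Cryab are examples in which BMP did. In Igf2 and Hspb1 both groups stood above the controls to unequal degrees. For Spp1 the BMP median of 12.13 lay above the highest control of 11.16, but the BMP and control arrays overlapped. In Mag, Myrf and Sox10 the CNTF median lay near the control median and the BMP median below it. These placements are descriptions and were not tested.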

How the data were processed

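The deposited table holds linear probe set intensity values for 18 single-channel arrays, as the authors deposited them, with 31099 probe sets and values from 0.404 to 162940; how probes were summarised and arrays scaled is not given in the sources used here. The mean after trimming 2% at each end was 2500.7 to 2500.8 on every array and the median intensity of the 12 arrays was 686.3 to 817.2, so the normalization was kept. Precision rests on the 6 arrays per group.

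After 57 control probe sets were left out, log2(intensity + 116.655) entered a linear model (limma 3.58.1, R 4.3.3, eBayes with intensity trend) of the 12 arrays, with group and title number as terms. Tests were two-sided, adjusted by Benjamini-Hochberg over 31042 probe sets. The script was tested on simulated data. The labels do not say what the numbers mean; deviations from the group means correlated at 0.247 to 0.476 in each of the 6 same-numbered pairs and at -0.343 to 0.257 in the 30 other combinations, so the pairing was used.

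Symbols came from the platform annotation (20826 probe sets with 1 symbol, 436 with several, 9780 with none), 20764 of them matched to RefSeq identifiers, and a gene is its brightest probe set. Of 687 symbols in 39 lists, 617 were measured. Named were, among called genes of the same sign in 6 pairs and a group mean of at least 9.75 (the table median), the 12 largest differences each way and up to 3 genes per list with 2 or more calls, by adjusted p, plus 17 fixed genes, 117 in all. For genes named by this rule, a constant sign over the pairs follows from the choice. Other list members were named after their values were seen. The members and lists were chosen with earlier results of these data known. Alternatives were no pairing, all 18 arrays, a constant of 16, quantile normalization, a filter at the 40th percentile, and leaving out each pair.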

Additional observations from a re-analysis of the deposited data

Results flagged for a closer look

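In 25 of 234 groups of 6 arrays (117 named genes with BMP and with CNTF), the highest or lowest array lay far from the other 5, its gap to the nearest, as a share of the group's range, exceeding Dixon's critical value. Chance gives such a gap in about 1 in 20 groups. Of the 25 arrays, 12 carried number 1.

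Number 1 held the lowest myelin values of both factors: Mbp was 9.33 with BMP, where the next array was 13.59, and 14.65 with CNTF, where the next was 16.23. Cldn11 was 8.54 with BMP and 13.09 with CNTF, and Mag was 10.89 with CNTF. The same number was also lowest in Gfap with CNTF (15.78), Eln with CNTF (7.11), Smad6 with CNTF (7.73) and Slc4a4 with BMP (13.19), and highest in Igf2r with CNTF (13.07) and in Mfng with BMP (11.17) and CNTF (12.19).

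Number 4 was highest in Tyms with BMP (10.91) and CNTF (10.50) and in Etv5 with CNTF (13.17), and lowest in Cebpd with BMP (8.58), Gsta4 with BMP (12.62) and Slit1 with CNTF (8.91). Number 6 was highest in Cspg4 with BMP (10.65) and CNTF (11.14), in Tcf7l2 with BMP (13.96) and CNTF (14.94), in Sox10 with CNTF (13.96) and in Asns with CNTF (12.76), and lowest in Ndp with CNTF (10.01).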

How the results depend on the processing

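Leaving the pairing out lowered the calls from 2273 to 824 probe sets higher with BMP and from 1826 to 755 higher with CNTF, and 1576 of the 1579 calls were among the paired ones; 42 of 112 called named genes lost their call. With a constant of 16, quantile normalization, the filter on dim probe sets or all 18 arrays, the counts stayed within 1.5 times, at 2096 to 2536 and 1808 to 2150. Leaving out each pair gave 1604 to 2055 and 1295 to 1700, and 9 named genes lost their call under at least 1 such setting. Id1 and Id3, which were not called, changed sign, with values of -0.052 to 0.090 and -0.088 to 0.011. No other named gene changed sign under these alternatives. Over the 39 lists, 44 of 78 counts moved by over 1.5 times without the pairing and 26 with some pair left out. Background signals were not used here, so dim genes carry no bound.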

Other observations

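Further single genes outside the lists above differed; they were chosen after their values were seen, and all had the same sign in 6 of 6 pairs (limma, adjusted p given). Some receptor and peptide genes known from neurons were among those higher with BMP. The kappa opioid receptor Oprk1 differed by 2.40 (adjusted p = 1.37e-05), the glycine receptor subunit Glra2 by 2.35 (4.51e-05), the AMPA receptor subunit Gria1 by 2.24 (0.00031), the GABA receptor subunits Gabra4 by 2.18 (9.19e-05) and Gabrb1 by 1.92 (2.69e-05), and the peptide genes Crh by 2.51 (0.0013) and Pnoc by 2.22 (0.01). Gabrb1 stood at 12.12, 12.67 and 13.28 with BMP and at 10.04, 10.71 and 11.52 with CNTF, and its control median of 12.42 lay near the BMP level. The retinoic acid-degrading enzyme Cyp26b1 (2.22, 7.5e-05) and the mitochondrial coactivator Ppargc1a (1.89, 5.76e-05) were also higher with BMP.

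On the CNTF side, H19, the imprinted transcript next to Igf2, stood at a median of 13.80 with BMP (highest 16.25), at 16.63, 16.86 and 16.96 with CNTF and at a median of 11.14 in controls, a difference of -2.79 (SE 0.47, adjusted p = 0.00386). Its treated groups did not overlap, as with Igf2. The inflammatory caspase Casp4 (-2.54, 2.09e-05), the choline dehydrogenase Chdh (-2.63, 7.79e-06), the membrane proteins Tmem176a (-2.30, 4.59e-05) and Tmem176b (-1.85, 1.47e-05), the lectin Lgals3 (-1.96, 0.00016) and the interferon-induced Ifitm3 (-1.95, 0.00886) were higher with CNTF and had control medians at or below the BMP median. The oligodendrocyte genes Tppp (-2.43, 2.77e-05), Apod (-2.44, 0.000106) and Tnr (-2.12, 3e-05) had control medians of 13.06, 12.37 and 13.16, near their CNTF medians of 13.56, 12.63 and 13.01.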
